A study of Mus musculus with 8 samples.

Results

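The 10 genes described here code for ligands and receptors that liver blood vessels use: the VEGF ligands Vegfa, Vegfc and Pgf with the receptors Flt1 and Kdr, the angiopoietins Angpt1 and Angpt2 with their receptor Tek, and the Notch pair Dll4 and Notch1. They were taken as a fixed list of symbols from the deposited feature tables, and all 10 were found among the 32285 listed genes. Raw molecule counts of each gene were summed per liver and within cell classes that were gated by other genes.

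The livers came from 8 male DIAMOND mice, labelled as a cross of 129A1/SvIm and C57BL/6J, which develop fatty liver disease and liver tumours on a Western diet. Livers were snap-frozen and single nuclei were sequenced with 10x Chromium 3′ version 3.1 chemistry, which counts RNA molecules by a unique molecular identifier (UMI). WD tumour (n = 3 mice) had a high-fat diet with fructose and glucose in the water for 48 weeks and carried tumours. RD tumour (n = 2 mice) had that diet for 36 weeks, then went back to standard chow, and carried tumours. RD no tumour (n = 3 mice) had the same 36 weeks and reversal, and no liver cancer was recorded. All 3 groups therefore share a long exposure to the Western diet, and no mouse on chow throughout is among them. The labels do not say whether the sampled piece of liver held tumour, and they disagree on the age at sampling, which is not used.

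VEGF-A is the main growth signal for endothelial cells. It acts through KDR (VEGFR2), while FLT1 (VEGFR1) binds it tightly and limits how much reaches KDR; placental growth factor (Pgf) binds FLT1 only, and VEGF-C acts on KDR and on the lymphatic receptor FLT4. Angiopoietin 1 activates the endothelial receptor TEK (Tie2) and keeps vessels quiet, and angiopoietin 2 competes with it in most settings. DLL4 on an endothelial cell activates NOTCH1 on its neighbour and restrains sprouting in response to VEGF. In the liver, the sinusoids are lined by fenestrated endothelial cells that rely on VEGF-A from the cells around them, and stellate cells lie between those endothelial cells and the hepatocytes.

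The receptors Flt1, Kdr and Tek, which lay largely in the same class of nuclei below, are shown by the 250 bases before their RefSeq transcription starts (build GRCm38.p6). Capitals mark GGAA or TTCC, the core of ETS factor motifs on either strand; these letters stand in 93.4% of 32851 such windows of all genes, so a match is a description of the window only. Flt1 (chr5:147726012-147726261, minus strand) has 4 matches, Kdr (chr5:75978456-75978705, minus strand) has 4 and Tek (chr4:94739039-94739288, plus strand) has 2. At least 4 matches stand in 33.4% of all windows, and at least 2 in 76.8%.
Flt1: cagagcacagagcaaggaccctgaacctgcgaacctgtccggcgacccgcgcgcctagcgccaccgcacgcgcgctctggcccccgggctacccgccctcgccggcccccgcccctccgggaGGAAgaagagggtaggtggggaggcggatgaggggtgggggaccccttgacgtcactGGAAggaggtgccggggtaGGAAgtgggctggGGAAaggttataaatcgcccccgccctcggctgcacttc
Kdr: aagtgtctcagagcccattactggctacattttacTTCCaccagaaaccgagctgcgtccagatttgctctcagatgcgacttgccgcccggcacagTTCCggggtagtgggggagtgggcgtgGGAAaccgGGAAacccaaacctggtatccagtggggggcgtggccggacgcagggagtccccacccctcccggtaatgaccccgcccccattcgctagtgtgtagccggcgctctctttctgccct
Tek: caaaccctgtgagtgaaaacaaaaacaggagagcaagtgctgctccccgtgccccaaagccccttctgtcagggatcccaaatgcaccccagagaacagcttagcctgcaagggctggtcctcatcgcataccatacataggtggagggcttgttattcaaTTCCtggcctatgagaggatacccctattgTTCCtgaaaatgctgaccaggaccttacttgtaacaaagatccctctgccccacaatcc

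The libraries held 17948627 to 34363108 UMIs each, and 79446 of 80575 barcodes had at least 300 detected genes. A nucleus was put in a class when at least 3 of that class's markers had a UMI and no other class reached 3, and in the hepatocyte class when at least 5 of 14 hepatocyte markers and at most 1 marker of any other class were seen. This gave 25891 hepatocyte, 7327 endothelial, 4402 stellate, 6447 macrophage and 1018 cholangiocyte nuclei, while 8399 nuclei with markers of several classes were left out as possible doublets. RD tumour 1 stood apart: it holds exactly 20000 barcodes, 4933 of its nuclei were gated as neutrophils, and the 15 endothelial markers summed to 2661 counts per 1000000 UMIs (CPM) in its endothelial nuclei against 5383 to 8771 CPM in the other 7 libraries. The same library had 16 cholangiocyte and 13 vascular endothelial nuclei, fewer than the 20 needed to enter a test. Libraries shared at most 0.676% of their barcodes. The 14 hepatocyte markers summed to 18327 to 32921 CPM in endothelial nuclei, not far below the 22045 to 47333 CPM of hepatocytes, so RNA of hepatocyte genes was abundant outside the hepatocyte class.

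Flt1, Kdr, Tek and Dll4 had their largest share of UMIs in endothelial nuclei, while Vegfa, Vegfc and Angpt1 had theirs elsewhere. Of 16076 Flt1 UMIs, 51.3% were in the endothelial class, as were 50.7% of 6252 Tek UMIs, 47.0% of 1022 Dll4 UMIs and 39.9% of 7739 Kdr UMIs. Hepatocytes held 36.7% of 43221 Vegfa UMIs and the endothelial class 5.53%. Stellate nuclei, 5.54% of all nuclei, held 26.8% of 6728 Vegfc UMIs and 37.4% of 4218 Angpt1 UMIs, and cholangiocytes, 1.28% of all nuclei, held another 14.0% of the Angpt1 UMIs. Nuclei with markers of several classes held between 19.4% (Vegfa) and 35.9% (Pgf) of each gene's UMIs.

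**Figure D1:**
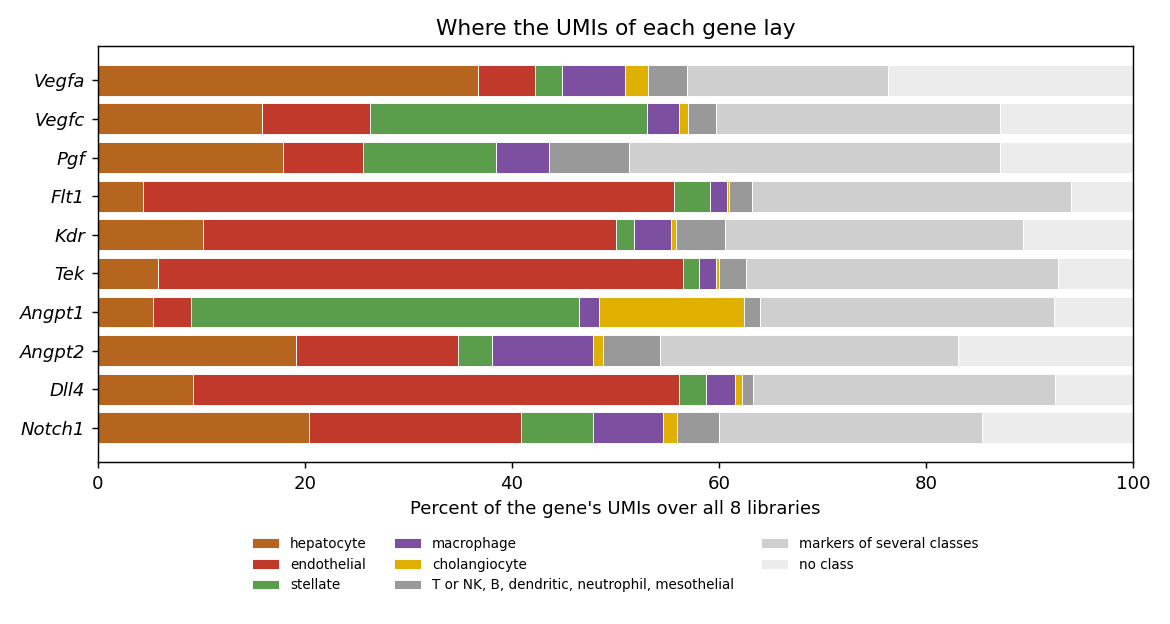
Each bar splits all UMIs of a gene over the 8 libraries (x axis, percent) by the class of the nucleus that held them. Flt1, Tek and Dll4 have their largest coloured share in endothelial nuclei, Vegfa in hepatocytes, and Vegfc and Angpt1 in stellate nuclei; Pgf rests on 39 UMIs in all.

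Vegfa, the principal VEGF ligand, was counted in all 5 of the classes named above, and hepatocytes had more of it than endothelial, stellate or macrophage nuclei. In hepatocytes it stood at 233, 347 and 355 CPM in WD tumour 1 to 3, at 135 and 279 CPM in RD tumour 1 and 2, and at 249, 216 and 167 CPM in RD no tumour 1 to 3. Endothelial nuclei of the same mice ranged from 80.7 to 226 CPM, and in each library the endothelial level was below the hepatocyte level. The hepatocyte markers were themselves high in endothelial nuclei, as given above, and their part in the Vegfa level outside hepatocytes was not tested. The log2 difference between endothelial nuclei and hepatocytes was -0.91 ± 0.14 (SE; edgeR quasi-likelihood test with mouse as a block, Benjamini-Hochberg adjusted p = 2.26e-07, n = 8 mice). Against hepatocytes it was -1.17 ± 0.14 in stellate nuclei (adjusted p = 7.26e-10) and -1.03 ± 0.14 in macrophages (adjusted p = 1.56e-08). Cholangiocytes, the cells of the bile ducts, had 166 to 383 CPM in the 7 libraries with enough nuclei, and their difference from hepatocytes did not pass (adjusted p = 0.274, edgeR).

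Vegfc was highest in stellate nuclei. Its level there was 187, 427 and 127 CPM with WD tumour, 59.1 and 135 CPM with RD tumour, and 298, 167 and 146 CPM with RD no tumour, against 12.5 to 26.9 CPM in hepatocytes of all mice. The ranges of the stellate and hepatocyte classes did not overlap. Stellate nuclei exceeded hepatocytes by 3.42 ± 0.25 on the log2 scale (edgeR adjusted p = 3.34e-16) and endothelial against stellate nuclei gave -2.17 ± 0.25 (adjusted p = 3.03e-10). Endothelial nuclei were in between, with 15.1 to 87.7 CPM and a log2 difference of 1.25 ± 0.25 from hepatocytes (edgeR adjusted p = 3.9e-05). Pgf could not be followed: 30 of its 39 UMIs were in RD tumour 2, and it did not pass the filter on low counts at any level.

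Angpt1, the activating ligand of TEK, was highest in stellate nuclei and cholangiocytes. Stellate nuclei had 170, 145 and 124 CPM with WD tumour, 44.3 and 122 CPM with RD tumour, and 248, 218 and 227 CPM with RD no tumour. Cholangiocytes had 217, 127 and 186 CPM in WD tumour, 245 CPM in RD tumour 2, and 206, 147 and 63.7 CPM in RD no tumour, against 1.19 to 8.38 CPM in hepatocytes of all 8 mice. Both classes stood above every hepatocyte value, with log2 differences of 5.50 ± 0.33 for stellate nuclei (edgeR adjusted p = 2.03e-19) and 5.27 ± 0.34 for cholangiocytes (adjusted p = 1.25e-17). The 15 stellate markers summed to 46.0 to 293 CPM in the cholangiocyte nuclei of those 7 libraries, and to 2383 to 7397 CPM in the stellate nuclei of all 8. The cholangiocyte markers summed to 299 to 1442 CPM in stellate nuclei and to 1571 to 5495 CPM in cholangiocyte nuclei. The gate itself limits how many markers of another class a nucleus may hold, while Angpt1 has no such limit. These sums therefore cannot measure stellate RNA in cholangiocyte nuclei, or cholangiocyte RNA in stellate nuclei. The part of such RNA in the Angpt1 levels of these classes was not tested.

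Endothelial nuclei had 3.34 to 8.65 CPM of Angpt1 in 7 libraries and 46.6 CPM in RD no tumour 1. In that library 76 of the 79 endothelial Angpt1 UMIs came from 10 of 817 nuclei, with up to 26 in 1 nucleus, while the other libraries had at most 2 endothelial nuclei with 2 or more Angpt1 UMIs. The log2 difference between endothelial nuclei and hepatocytes was 1.24 ± 0.37 (edgeR adjusted p = 0.00451) with all libraries, and 0.55 (adjusted p = 0.251) without RD no tumour 1.

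Angpt2, the context-dependent rival of angiopoietin 1, was highest in endothelial nuclei in 6 of 8 libraries. In RD no tumour 3 macrophages (51.9 CPM), T and NK cells (48.7 CPM) and stellate nuclei (38.3 CPM) were above them, and in RD tumour 1 stellate nuclei were level with them (40.6 CPM). Its endothelial level was 77.2, 130 and 142 CPM with WD tumour, 40.2 and 64.0 CPM with RD tumour, and 127, 42.1 and 34.5 CPM with RD no tumour. Hepatocytes had 14.7 to 37.3 CPM, and endothelial nuclei exceeded them by 1.64 ± 0.19 on the log2 scale (edgeR adjusted p = 7.59e-10). The gene lies wholly inside Mcph1, which is read from the opposite strand (51300 shared bases in GENCODE M21, chromosome 8), and whether the counting used strand is not given in the sources used here. Reads of both genes can then be told apart only by strand, which makes the Angpt2 level uncertain in endothelial nuclei and in the other classes.

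**Figure D2:**
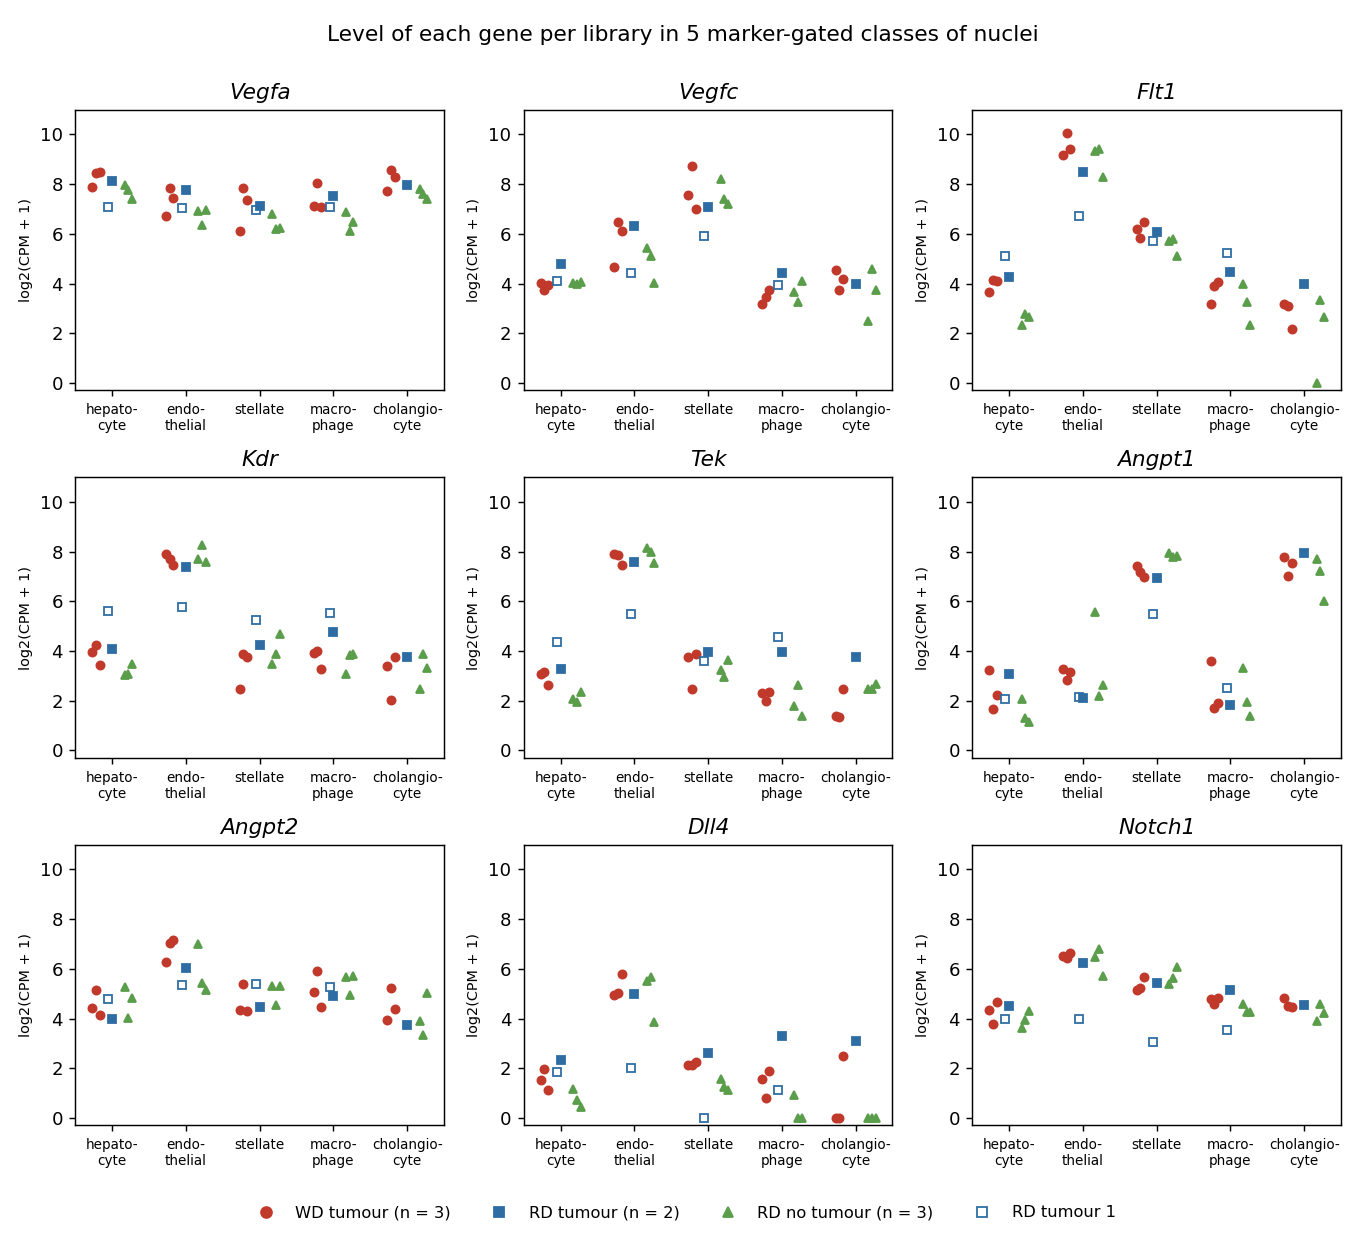
Each panel gives 1 gene, with log2(CPM + 1) on the y axis and the 5 largest classes on the x axis; each point is 1 library with at least 20 nuclei of the class, coloured by group, with RD tumour 1 open. Flt1, Kdr, Tek and Dll4 peak in endothelial nuclei, Vegfc in stellate nuclei and Angpt1 in stellate nuclei and cholangiocytes. Among endothelial nuclei the open square is lowest or nearly so for each endothelial receptor. For Kdr it is highest in hepatocytes, stellate nuclei and macrophages.

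Across the tested genes, endothelial nuclei and hepatocytes differed widely, so the counts of this list have to be read against that background. Of the 9 tested members, 8 were higher in endothelial nuclei and 1 was lower (edgeR adjusted p under 0.05), where 20.8% of all 13698 tested genes were higher and 24.9% lower. Stellate nuclei against hepatocytes gave 4 members higher and 1 lower, with 22.4% and 27.0% of all genes. The other class comparisons gave 1 higher and 1 lower for macrophages (23.0% and 27.8% of genes), 1 higher and 0 lower for cholangiocytes (9.79% and 11.8%), and 6 higher and 2 lower for endothelial against stellate nuclei (14.6% and 11.9%). The median log2 difference of the members between endothelial nuclei and hepatocytes was 1.96, beside -0.07 for all tested genes.

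Flt1, the receptor that holds VEGF-A without strong signalling, had the widest gap between endothelial nuclei and hepatocytes of the 9 tested members. Endothelial nuclei had 574, 1080.5 and 683 CPM with WD tumour, 105 and 362 CPM with RD tumour, and 646, 683 and 312 CPM with RD no tumour. Hepatocytes had 4.03 to 33.8 CPM, which gave a log2 difference of 5.40 ± 0.33 (edgeR adjusted p = 1.01e-18). Stellate nuclei also carried Flt1, with 33.7 to 88.5 CPM in the 8 libraries and a log2 difference of 2.23 ± 0.32 from hepatocytes (edgeR adjusted p = 4.49e-08).

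Kdr, the main signalling receptor for VEGF-A, had 241, 206 and 173 CPM in endothelial nuclei of WD tumour, 53.0 and 168 CPM in RD tumour, and 209, 305 and 191 CPM in RD no tumour. Its log2 difference from hepatocytes was 3.78 ± 0.28 (edgeR adjusted p = 5.59e-16). Tek had 239, 233 and 177 CPM in endothelial nuclei of WD tumour, 44.3 and 193 CPM in RD tumour, and 282, 252 and 187 CPM in RD no tumour, 4.95 ± 0.32 above hepatocytes on the log2 scale (adjusted p = 7.97e-18). For both receptors RD tumour 1 was the lowest endothelial value, and the remaining 7 libraries lay within 168 to 305 CPM for Kdr and 177 to 282 CPM for Tek. Unlike Flt1, neither passed in stellate nuclei against hepatocytes (edgeR adjusted p = 0.897 for Kdr and 0.162 for Tek); the difference between the genes was not tested.

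Dll4, the endothelial Notch ligand, was rare: 480 UMIs in all endothelial nuclei, at 29.9, 31.7 and 54.0 CPM with WD tumour, 3.01 and 31.0 CPM with RD tumour, and 44.3, 49.3 and 13.4 CPM with RD no tumour. Endothelial nuclei exceeded hepatocytes by 4.25 ± 0.34 on the log2 scale (edgeR adjusted p = 6.98e-15). Notch1, its receptor, was spread more widely, with 89.8, 85.7 and 99.7 CPM in endothelial nuclei of WD tumour, 14.7 and 74.5 CPM in RD tumour, and 87.9, 109 and 51.3 CPM in RD no tumour. Hepatocytes had 11.3 to 24.2 CPM of Notch1, and the log2 difference from them was 1.96 ± 0.20 in endothelial nuclei (edgeR adjusted p = 1.17e-11) and 1.17 ± 0.21 in stellate nuclei (adjusted p = 6.61e-06). The start of Dll4 overlaps 411 bases of the opposite-strand transcript Gm14207.

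Within the endothelium, the genes did not follow the same vessels. Endothelial nuclei were split by 7 sinusoidal markers (Stab2 and Clec4g among them) and 8 markers of larger vessels (Vwf and Selp among them), which left 339 vascular nuclei in the 7 libraries that could be compared. Of the 8 tested members, Tek and Notch1 were higher in vascular nuclei and Kdr, Angpt2 and Dll4 were higher in sinusoidal nuclei, where 3.72% of 9001 tested genes were higher and 3.58% lower in vascular nuclei.

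Kdr was lower in vascular than in sinusoidal nuclei in 7 of 7 libraries. Sinusoidal nuclei had 318, 285 and 217 CPM in WD tumour, 205 CPM in RD tumour 2, and 263, 358 and 218 CPM in RD no tumour, and vascular nuclei of the same mice had 139, 164 and 128 CPM, 110 CPM, and 69.0, 94.7 and 114 CPM. The log2 difference was -1.23 ± 0.17 (edgeR adjusted p = 1.69e-06). Tek ran the opposite way in 7 of 7 libraries, from 196 to 295 CPM in sinusoidal nuclei to 364 to 537 CPM in vascular nuclei, a log2 difference of 0.82 ± 0.13 (adjusted p = 1.22e-05).

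Angpt2 was lower in vascular nuclei, with a log2 difference of -1.94 ± 0.31 (edgeR adjusted p = 1.95e-05), and lower in 6 of 7 libraries, the exception being RD no tumour 3. Dll4 was lower in 7 of 7 libraries, with a log2 difference of -1.28 ± 0.35 (adjusted p = 0.0148), but its vascular value rests on 15 UMIs. Notch1 was higher in 7 of 7 libraries by 0.60 ± 0.18 (adjusted p = 0.0284). The calls for Dll4 and Notch1 were lost without RD no tumour 1 (adjusted p = 0.0686 and 0.147) or without RD no tumour 2 (0.0541 and 0.149), and that for Notch1 also without RD no tumour 3 (0.0623); those for Kdr, Tek and Angpt2 held without any 1 library. With no block for the mouse none of the 5 passed (adjusted p from 0.0849 for Tek to 0.663 for Dll4, edgeR). Flt1 was 0.23 ± 0.12 higher in vascular nuclei and did not pass (edgeR adjusted p = 0.374), nor did Vegfc at 0.66 ± 0.35 (adjusted p = 0.369, and 0.0221 without WD tumour 2) or Vegfa at -0.31 ± 0.19 (adjusted p = 0.485).

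**Figure D3:**
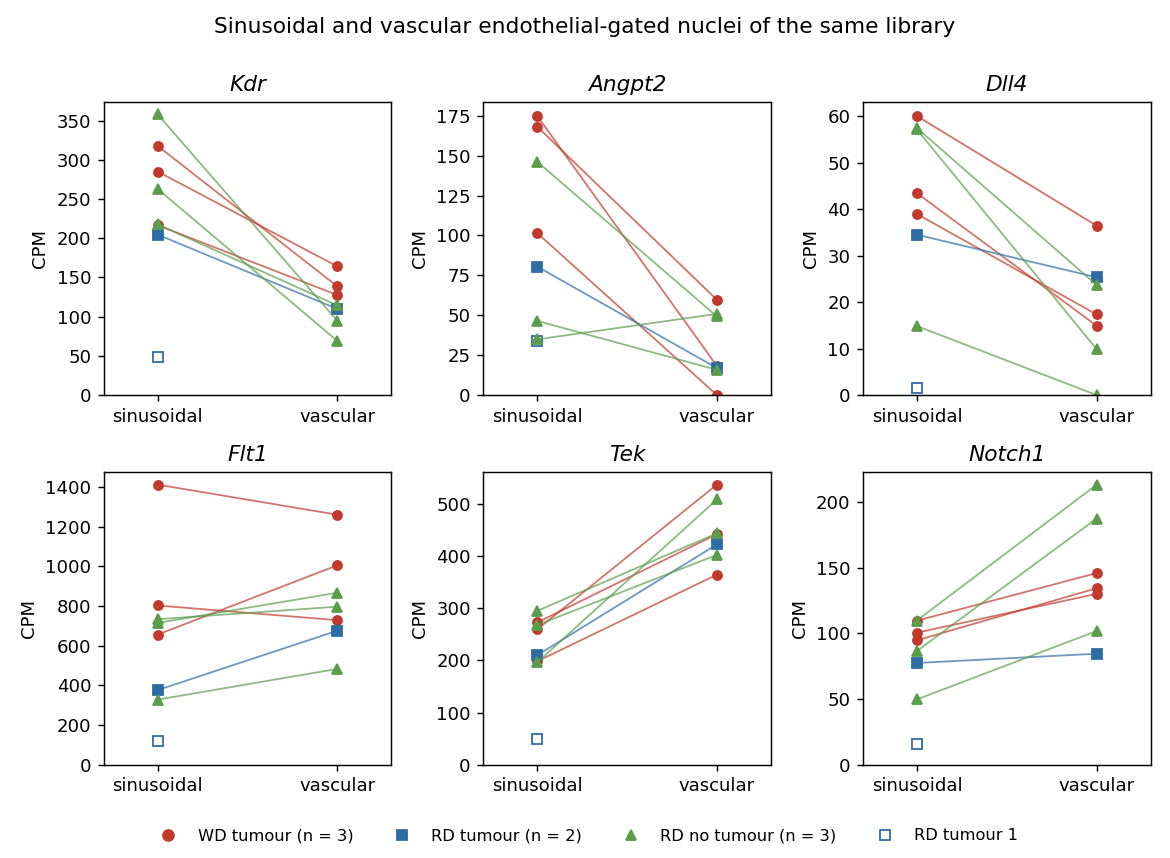
Lines join the sinusoidal and the vascular nuclei of 1 library, with CPM on the y axis from 0; RD tumour 1 had too few vascular nuclei and is shown as an open square only. Kdr and Dll4 fall and Tek and Notch1 climb in all 7 joined libraries, Angpt2 falls in 6 of 7, and the Flt1 lines go both ways.

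Along the hepatocyte plate no member passed the test. In pericentral against periportal hepatocytes 0 of 7 tested members passed (edgeR adjusted p under 0.05), where 6.69% of 11471 genes were higher and 7.23% lower, and 1 member, Notch1, had an unadjusted p under 0.05 (0.0159, adjusted p = 0.0928), as did 24.9% of those genes. DESeq2 called 0 members in the same comparison. Vegfa differed by 0.12 ± 0.09 on the log2 scale (adjusted p = 0.494, edgeR). Of 18 further pathway genes tested there, 4 were higher near the central vein and 2 lower. The higher ones were the VEGF co-receptors Nrp1 (0.58 ± 0.09, adjusted p = 0.000147) and Nrp2 (0.61 ± 0.10, adjusted p = 0.000124), the oxygen-sensing hydroxylase Egln3 (1.27 ± 0.16, adjusted p = 8.66e-06) and the ligand Vegfd (0.68 ± 0.15, adjusted p = 0.00335). The Notch target Hes1 (-0.92 ± 0.17, adjusted p = 0.000795) and the endothelial receptor Flt4 (-1.06 ± 0.24, adjusted p = 0.00392) were lower. Flt4 stood at 1.91 to 10.2 CPM in pericentral and 2.79 to 42.0 CPM in periportal nuclei, against 56.0 to 261 CPM in endothelial nuclei. The part of endothelial RNA in this Flt4 difference was not tested.

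The wider pathway was read from 35 further genes. In endothelial nuclei against hepatocytes 27 could be tested, of which 14 were higher and 2 lower (edgeR adjusted p under 0.05), beside 20.8% and 24.9% of all genes. The receptors Flt4 (4.27 ± 0.30, log2 difference), Tie1 (4.12 ± 0.30) and Notch4 (3.30 ± 0.30) were among those higher, as were Esm1 (3.56 ± 0.29), a VEGF-induced secreted proteoglycan, and Mfng (3.22 ± 0.32), a glycosyltransferase that modifies Notch receptors. The 2 lower genes were Notch2 (-0.52 ± 0.14) and the lipase inhibitor Angptl4 (-0.93 ± 0.13), with adjusted p of 0.00207 and 1.16e-07.

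Stellate nuclei against hepatocytes had 8 pathway genes higher and 4 lower of 27 tested, beside 22.4% and 27.0% of all genes. The Notch ligand Jag1 (2.76 ± 0.22), the mural-cell receptor Notch3 (3.37 ± 0.37) and Svep1 (5.61 ± 0.36), a matrix protein that binds TIE1, were the widest gaps among the named ones, each on the log2 scale with an edgeR adjusted p of 3.86e-15, 1.37e-10 and 1.91e-18. The 4 lower genes were Egln3 (-1.27 ± 0.25), Foxo1 (-1.02 ± 0.11), Angptl4 (-0.98 ± 0.14) and Hif1a (-0.40 ± 0.14). Of 19 pathway genes tested in vascular against sinusoidal nuclei, 2 were higher, Jag1 (2.92 ± 0.41) and Tie1 (0.75 ± 0.22), and 4 were lower, Flt4 (-1.87 ± 0.19), Esm1 (-2.60 ± 0.42), Nrp1 (-0.51 ± 0.12) and Nrp2 (-0.59 ± 0.16), where 3.72% and 3.58% of all genes were. Jag1 and Dll4, both Notch ligands, stood in opposite vessel types, as did Tie1 and Flt4.

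The groups of mice were compared next, in whole livers and within hepatocytes, endothelial nuclei, stellate nuclei and macrophages. With edgeR's quasi-likelihood test no member passed an adjusted p under 0.05 in any of the 15 comparisons, and neither did any other gene, so 0% of genes were called in each. An unadjusted p under 0.05 was found in 16 of 129 tests of a member, or 12.4%, and in 6.6% of the tests of all genes, and DESeq2 made 4 calls of a member, all in hepatocytes or macrophages. In bulk sums of a whole library, fewer cells of a type and less RNA per cell cannot be told apart. RD tumour has 2 mice, 1 of which is the library that stood apart, and without it (RD tumour 2 alone) 0 members were called; with RD tumour 1 as the only mouse of its group, 1 to 5 members were called in 10 of the 15 comparisons, together with 1458 to 4594 genes. A group of 1 mouse gives no spread of its own, and these fits take the spread from the other groups.

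In whole libraries Vegfa was higher in each WD tumour mouse than in each RD no tumour mouse. It stood at 198, 302 and 298 CPM in WD tumour, at 149 and 248 CPM in RD tumour, and at 174, 167 and 149 CPM in RD no tumour. WD tumour and RD no tumour did not overlap, with a log2 difference of 0.65 ± 0.27 (edgeR unadjusted p = 0.0401, adjusted p = 1.0). Of the 9 tested members, 2 were higher without overlap (Vegfa and Notch1) and 0 lower, where 6.85% of 19087 genes were higher and 3.8% lower in the same way. Notch1 stood at 30.1, 28.9 and 36.3 CPM against 24.9, 28.9 and 26.1 CPM, values that nearly touch.

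Within hepatocytes the Vegfa levels given above overlapped between WD tumour (233 to 355 CPM) and RD no tumour (167 to 249 CPM). In macrophages Vegfa did not overlap, at 138, 260 and 133 CPM in WD tumour against 118, 68.3 and 87.0 CPM in RD no tumour, with a log2 difference of 0.94 ± 0.34 (edgeR unadjusted p = 0.0245, adjusted p = 1.0). Of the 8 members tested in macrophages, 2 were higher without overlap in that comparison and 0 lower, where 5.27% and 4.01% of 12648 genes were.

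In stellate nuclei, the named class with the largest share of its UMIs, Angpt1 was highest in the 3 RD no tumour mice. The 3 RD no tumour mice had 218 to 248 CPM, the 3 WD tumour mice 124 to 170 CPM and the 2 RD tumour mice 44.3 and 122 CPM. No group overlapped another, but the values of RD tumour and WD tumour nearly touch. The share of all genes with 3 groups apart in this way is not given here. RD tumour against RD no tumour gave a log2 difference of -1.54 ± 0.42 (edgeR unadjusted p = 0.00556, adjusted p = 0.721). With RD tumour 2 as the only mouse of its group it was -1.02. Of the 8 tested members, 1 was higher and 2 were lower without overlap in stellate nuclei, where 14.2% and 8.05% of 11993 genes were. The stellate markers summed to 2383 CPM in the stellate nuclei of RD tumour 1, below the 5564 to 7397 CPM of the other 7 libraries, and their part in the difference was not tested. The other lower member was Vegfc, at 59.1 and 135 CPM against 146 to 298 CPM. Neither stellate comparison with WD tumour had a member with an unadjusted p under 0.05 (edgeR). In cholangiocytes, which also hold Angpt1, the order differed: RD tumour 2 was highest at 245 CPM and RD no tumour 3 lowest at 63.7 CPM.

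**Figure D4:**
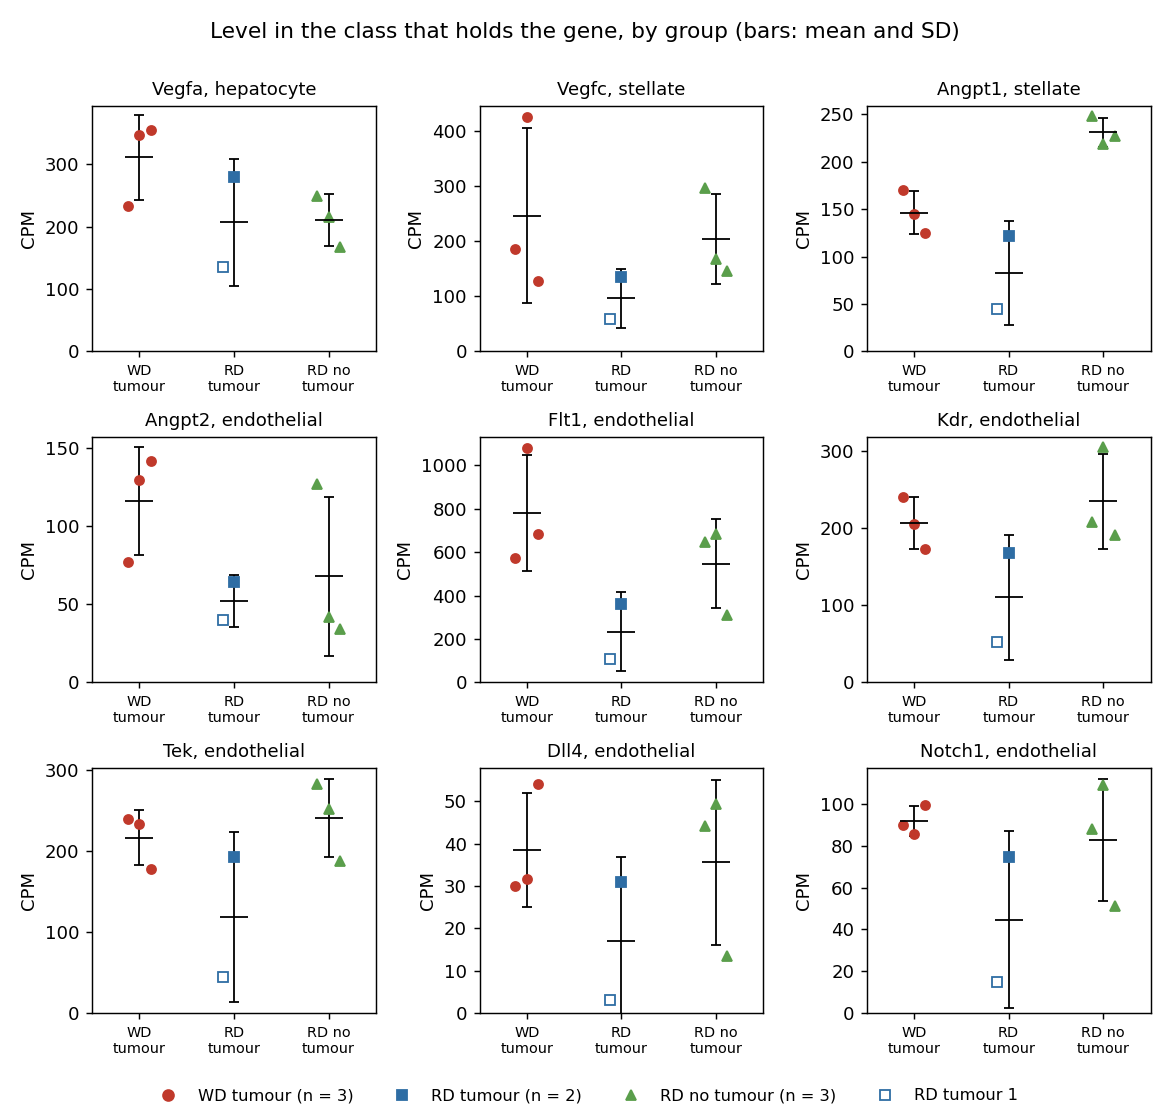
Each panel shows CPM of 1 gene in the class that holds most of its UMIs among the named classes, by group; points are libraries, the horizontal bar and whiskers are the group mean and SD, and RD tumour 1 is open. Stellate Angpt1 is the panel in which no group overlaps another, though RD tumour and WD tumour nearly touch. In every endothelial panel except Angpt2 the RD tumour spread runs between the open square and another mouse near the other groups.

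In endothelial nuclei the lowest value of each of Flt1, Kdr, Tek, Dll4 and Notch1 was that of RD tumour 1. Of the 9 tested members, 2 were lower and 1 was higher without overlap in RD tumour against RD no tumour, where 7.61% and 13% of 13082 genes were. Kdr differed by -1.18 ± 0.50 on the log2 scale (edgeR unadjusted p = 0.0436, adjusted p = 0.552), and by -0.58 with RD tumour 2 as the only mouse of its group. Flt1 in WD tumour exceeded RD tumour by 1.77 ± 0.62 (unadjusted p = 0.0204, adjusted p = 0.529), and by 1.15 over RD tumour 2 alone. The same library had the lowest endothelial-marker sum, and per 100 UMIs of the 15 endothelial markers it held 1.99 Kdr UMIs, against 2.36 to 3.96 in the other 7 libraries. For Flt1 that ratio was 3.95 in RD tumour 1 and 5.65 to 12.4 in the others.

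Between WD tumour and RD no tumour, which both have 3 mice, the endothelial levels overlapped for all 9 tested members, where 5.73% of genes were higher and 3.31% lower without overlap. The endothelial share of nuclei was 8.65% ± 1.31 (SD, n = 3) in WD tumour and 11.3% ± 2.89 (SD, n = 3) in RD no tumour.

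Hepatocyte-gated nuclei held low levels of the endothelial receptors, and Flt1 was lowest in RD no tumour. It stood at 11.6, 16.5 and 16.2 CPM in WD tumour, at 33.8 and 18.2 CPM in RD tumour, and at 4.03, 5.87 and 5.30 CPM in RD no tumour, with no overlap between RD no tumour and either other group. The log2 difference was 2.07 ± 0.35 for RD tumour against RD no tumour (edgeR unadjusted p = 0.000375, adjusted p = 0.201) and 1.53 ± 0.32 when WD tumour was set against RD no tumour (unadjusted p = 0.00145, adjusted p = 0.564). DESeq2 called both (adjusted p = 0.000147 and 0.012), where it called 449 and 97 genes in all (2.87% and 0.619%).

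Of the 9 members tested in hepatocytes, 5 had both RD tumour mice above all RD no tumour mice and 0 had both below, where 18.5% and 7.95% of 15670 genes were. The others beside Flt1 were Tek (log2 difference 1.73 ± 0.43), Kdr (1.66 ± 0.48), Dll4 (2.06 ± 0.68) and Vegfc (0.30 ± 0.32), with edgeR unadjusted p of 0.00394, 0.00855, 0.0168 and 0.37 and each adjusted p at least 0.289. In WD tumour against RD no tumour, Flt1 and Tek (0.99 ± 0.39, unadjusted p = 0.0348) were higher without overlap and 0 members were lower, where 7.16% and 6.6% of genes were.

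The endothelial markers moved with these values. Their sum in hepatocyte-gated nuclei was 142, 236 and 132 CPM with WD tumour, 476 and 189 CPM with RD tumour, and 127, 67.6 and 98.6 CPM with RD no tumour, with no marker at 0 in any library. Per 100 UMIs of those markers, Flt1 had 8.21, 7.02 and 12.3 UMIs with WD tumour, 7.10 and 9.66 with RD tumour, and 3.17, 8.68 and 5.37 with RD no tumour, and the groups overlapped. Kdr had 5.62 to 10.9 per 100 marker UMIs in RD no tumour and 8.41 to 10.2 in RD tumour. Flt1 in RD tumour 2 alone exceeded RD no tumour by 1.72 on the log2 scale, with no replicate in that group.

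**Figure D5:**
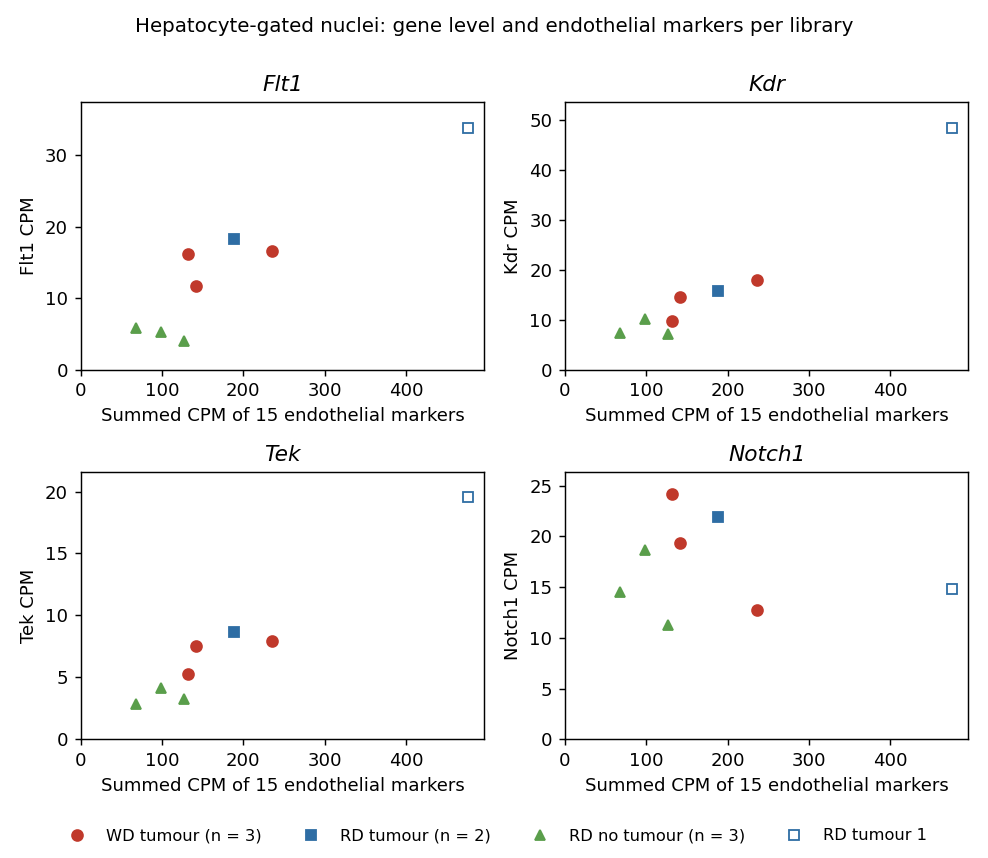
In hepatocyte-gated nuclei, the CPM of a receptor (y axis) is plotted against the summed CPM of 15 endothelial markers (x axis), 1 point per library. For Flt1, Kdr and Tek the open square of RD tumour 1 is highest on both axes, at 33.8 CPM of Flt1 and 476 CPM of markers, and the RD no tumour libraries are lowest on the y axis for Flt1; Notch1 shows no such order.

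In macrophages Tek was likewise highest in RD tumour. It stood at 3.99, 2.98 and 4.08 CPM in WD tumour, at 22.5 and 14.6 CPM in RD tumour, and at 2.48, 5.21 and 1.60 CPM in RD no tumour, so both RD tumour mice were above all 6 others. The log2 difference between RD tumour and RD no tumour was 2.53 ± 0.53 (edgeR unadjusted p = 0.00119, adjusted p = 0.446; DESeq2 adjusted p = 0.0299, with 0.474% of genes called), and WD tumour against RD tumour gave -2.34 ± 0.53 (edgeR unadjusted p = 0.00202, adjusted p = 0.528). In RD tumour against RD no tumour, Kdr and Flt1 were also higher without overlap, and with Tek and Vegfa made 4 of the 8 tested members. There 0 members were lower, where 11.8% of genes were higher and 10.2% lower. The endothelial markers in macrophage nuclei summed to 637 and 486 CPM in RD tumour and to 354 to 521 CPM in the other 6 libraries, and their part was not tested. Per 100 UMIs of those markers, Tek had 3.53 and 3.00 UMIs in RD tumour and 0.450 to 1.15 in the other 6, without overlap. A nucleus enters the macrophage class only with fewer than 3 endothelial markers, while Tek has no such limit. The ratio therefore cannot measure the endothelial RNA in these nuclei. The Tek level was not particular to macrophages. In RD tumour 1 Tek stood at 19.5 CPM in hepatocytes, 18.8 CPM in neutrophils and 11.1 CPM in stellate nuclei, beside 22.3 CPM in the whole library. In RD tumour 2 it stood at 14.7 CPM in stellate nuclei and 8.65 CPM in hepatocytes. Whether the macrophage Tek UMIs came from macrophages was not tested.

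No further pathway gene passed in a group comparison (edgeR, adjusted p under 0.05; 21 to 33 of 35 tested at each level). In whole libraries 3 of 33 had an unadjusted p under 0.05 in RD tumour against RD no tumour and 3 in WD tumour against RD no tumour, where 6.7% and 2.75% of all genes did. The hypoxia-responsive factor Epas1 was higher without overlap in WD tumour than in either other group in whole libraries, by 0.90 ± 0.34 over RD no tumour (unadjusted p = 0.0309) and 0.96 ± 0.39 over RD tumour (unadjusted p = 0.0399). Flt4 in macrophages had the smallest unadjusted p of the named ones, with a log2 difference of 2.93 ± 0.49 in RD tumour against RD no tumour (edgeR unadjusted p = 0.000259, adjusted p = 0.354). In RD tumour 1 it stood at 26.7 CPM in macrophages, 31.2 CPM in hepatocytes and 44.3 CPM in stellate nuclei. RD tumour 2 had 16.5, 12.1 and 10.3 CPM in the same classes. Whether the macrophage Flt4 UMIs came from macrophages was not tested. In endothelial nuclei Notch2 was higher in RD tumour (2.18 ± 0.60, unadjusted p = 0.00628), where 1 library held 367 CPM and the median of the 8 was 54.9 CPM.

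Over 56 sums of a library and a class, the genes most like each member were found by Pearson's r of log2(CPM + 1) among 16562 genes that are not gate markers. The values are descriptions, since sums of 1 mouse share a library and its depth. The nearest genes were Eng for Flt1 (r = 0.88), Adgrf5 for both Kdr (r = 0.88) and Tek (r = 0.90), Gcnt2 for Vegfa (r = 0.80), Sept4 for Vegfc (r = 0.83) and Fgf12 for Angpt1 (r = 0.85). Kdr also had Flt4 next (r = 0.85). For Angpt2, Dll4 and Notch1 the nearest were Elk3 (r = 0.76), Ptprr (r = 0.81) and Ptpn12 (r = 0.77).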

How the data were processed

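Single-nucleus RNA of 8 mouse livers was analysed from the deposited gene by barcode matrices of raw UMI counts, made by the authors with Cell Ranger 7.0.0 per the file headers, on mm10 per the submitters' processing notes. Whether intronic reads and strand were used in counting is not given in the sources used here. Libraries held 17948627 to 34363108 UMIs, and groups came from the labels. The members, markers and pathway lists were chosen with earlier results of these data known. All 10 members are described; pathway genes are named where they passed, and otherwise as the 3 widest differences with an unadjusted p under 0.05 and no overlap; some class-level names were picked after their values were seen. Barcodes with at least 300 genes were gated by markers and summed per library and class (at least 20 nuclei). Sums were tested with edgeR 4.0.16 (quasi-likelihood, TMM, filterByExpr, R 4.3.3), with Benjamini-Hochberg adjustment over all genes tested; class comparisons kept the mouse as a block. SEs are the log2 difference divided by the root of F. DESeq2 1.42.0 and other settings were alternatives. The fits were tested on simulated data. Scaling was to CPM. The labels do not say that the mice shared a batch. In group comparisons p-values measure the spread between these mice. In class comparisons, with the mouse as a block, they measure how class differences vary from mouse to mouse. Positions are from GENCODE M21 (GRCm38); promoters from RefSeq, which matched 8 of 10 members.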

Additional observations from a re-analysis of the deposited data

Results flagged for a closer look

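In some comparisons every library of a group lay above another group in 1 class and below it in a different class, and no difference between classes was tested. Kdr in RD tumour against RD no tumour had a log2 fold change of 1.66 in hepatocytes and 1.63 in macrophages, and of -1.18 in endothelial nuclei. Kdr in WD tumour against RD tumour gave 0.94 in endothelial nuclei, -1.18 in stellate nuclei and -1.45 in macrophages. Flt1 in WD tumour against RD tumour gave 1.77 in endothelial nuclei, -0.54 in hepatocytes and -1.14 in macrophages. Vegfc in RD tumour against RD no tumour gave 0.30 in hepatocytes and -1.16 in stellate nuclei. None of these log2 fold changes passed an adjusted p under 0.05 (edgeR). RD tumour 1 is 1 of the 2 RD tumour mice in all of these. Its classes differed little in Kdr, with 53.0 CPM in endothelial nuclei, 48.6 CPM in hepatocytes, 45.0 CPM in macrophages and 36.9 CPM in stellate nuclei. RD tumour 2 had 168, 15.9, 26.0 and 18.0 CPM in the same classes. The part of RD tumour 1 in these opposite directions was not tested.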

How the results depend on the processing

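The count of members called was within 1.5 times the main count in 163 of 171 recomputations by another setting and in 164 of 176 that left out 1 library. The main count was 0 in the 15 group comparisons and in pericentral against periportal hepatocytes. Counts that stayed at 0 are among the unchanged ones, which therefore say little about the calls that were made. DESeq2 called 2 members in hepatocytes of RD tumour against RD no tumour (Flt1, Tek), 1 in hepatocytes of WD tumour against RD no tumour (Flt1) and 1 in macrophages of RD tumour against RD no tumour (Tek), where edgeR called 0; it called 4 to 449 genes in the 15 group comparisons, and edgeR with no filter on low counts called up to 54 in the 3 stellate ones. Without the mouse as a block, 0 members passed in vascular against sinusoidal nuclei (206 genes against 657) and 1 in macrophages against hepatocytes (2915 genes against 6949), the latter also 1 with a gate of 2 markers. Cholangiocytes against hepatocytes gave 2 members with a gate of 4 markers and 2 with no filter. Leaving out 1 library gave 3 to 6 members in vascular against sinusoidal nuclei. For RD tumour against RD no tumour it gave 0 to 1 in whole libraries, 0 to 3 in hepatocytes, 0 to 5 in endothelial nuclei, 0 to 2 in stellate nuclei and 0 to 2 in macrophages, and for WD tumour against RD tumour 0 to 2, 0 to 1, 0 to 5, 0 to 2 and 0 to 3, each count above 0 arising with RD tumour 1 as the only mouse of its group, assumed to vary like the others; the cause was not tested. The labels share replicate numbers between groups. Deviations of same-numbered libraries correlated from -0.68 to 0.51 over whole libraries, and those of differently numbered ones from -0.64 to 0.76. Ranges that overlap in this way cannot decide whether the numbers pair the mice. A replicate block called 0 members in the 15 group comparisons. Other settings lost these calls: Angpt1, endothelial against hepatocyte (adjusted p = 0.213 and 0.0864 with gates of 2 and 4 markers), Angpt2, macrophage against hepatocyte (0.114 with no filter, 0.182 without the mouse block, 0.342 with a gate of 2 markers), Notch1, endothelial against stellate (0.0571 without the mouse block), and in vascular nuclei Notch1 (0.23 with no filter) and Dll4 (0.0724, DESeq2). Dll4 and Pgf are limited by their few UMIs, and 2 or 3 mice a group limit the group comparisons.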
